A study of Mus musculus with 6 samples.

Results

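Slc2a1, Hk2, Pfkp, Aldoa, Tpi1, Gapdh, Pgk1, Pkm and Ldha, the genes of a glucose transporter and of 8 enzymes on the route from glucose to lactate, were described in melanomas grown in mice from B16-F10 cells. The 9 genes were taken by symbol from the 53801 gene identifiers of the deposited counts. Each of them was set beside the gene annotated on the other strand of the same stretch of DNA, where there was one. All 6 tumours grew under the skin of male wild type C57BL/6 mice aged 10 to 12 weeks. In the SEVO group (n = 3) the injected cells had been primed in a chamber flushed with 2% sevoflurane, a volatile anaesthetic, for 30 min and kept there for another 2 h, and in the CTRL group (n = 3) they had not been primed. B16-F10 is a mouse skin melanoma line, every tumour of both groups came from this line, and the RNA was that of pieces of whole tumour. The comparison asks whether priming of the cells left a trace in the transcriptome of the tumours they formed.

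Glycolysis breaks glucose down to pyruvate in the cytosol, and lactate dehydrogenase turns pyruvate into lactate, which regenerates the NAD+ that the pathway consumes. Many tumours, melanomas among them, take up much glucose and release lactate also where oxygen is present. The transcription factor HIF-1, which accumulates when oxygen is low, binds sites with the core letters ACGTG or GCGTG and switches on several of these genes.

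The labels name monocytes as the cell type but a tumour as the source. The 7 melanocyte markers Mlana, Pmel, Tyr, Tyrp1, Dct, Mitf and Sox10 had a summed level of 1206 to 1279 CPM (read counts scaled by TMM to libraries of equal size) in CTRL and 592 to 1642 CPM in SEVO tumours, and none was at 0 in any tumour. Of 10 monocyte and macrophage markers only Csf1r and Cd68 had enough reads to be tested, and Cd14, Lyz2 and Itgam had 0 to 4 reads per tumour. In such pieces of tumour, fewer cells of a type and less RNA per cell cannot be told apart. Between 723431 and 1348676 reads were counted on genes in a tumour, so that some of the 9 genes rested on few reads. These were 2.06% to 4.61% of the uniquely aligned reads of a tumour, and why so few fell on genes was not tested. Tumours of the same group differed by a chi-squared value per gene of 5.04 to 103, far beyond counting noise, and the spread between tumours is the error used below. The labels call the tumours of a group replicates and say no more, and the p-values measure the spread between these samples. Neither the strand setting of the counting nor the library kit is given in the sources used here, so reads of a gene and of its opposite-strand partner cannot be told apart from the counts.

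In the GENCODE annotation of GRCm38, 5 of the 9 genes shared exon bases with a gene on the opposite strand. Exons of Slc2a1 met Gm12868, those of Pfkp met Pitrm1, those of Aldoa met Fam57b, those of Tpi1 met Spsb2 and those of Gapdh met Iffo1. Hk2 had an opposite gene in its introns only, and Pgk1, Pkm and Ldha had none. The shared stretches are short against the genes, with 105 bases for Slc2a1, 748 for Pfkp, 25 for Aldoa, 34 for Tpi1 and 68 for Gapdh. That of Aldoa lies in a coding exon and is shown because a read from it can be given to one gene of the pair only by its strand. It is in exon 2, printed from chr7:126797644-126797722 (GRCm38, minus strand), with the shared bases from 126797668 to 126797692 in capitals and coding bases of the same exon on either side in lower case.
Aldoa: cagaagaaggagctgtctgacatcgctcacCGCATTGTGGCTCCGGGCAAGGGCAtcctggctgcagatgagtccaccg

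Promoters were read from the RefSeq table of GRCm38.p6, as the 250 bases before each annotated start. All 9 genes had at least 1 entry, with 13 entries in all. ACGTG, on either strand, was present in 7 of the 13 (53.8%) against 16.6% of 32851 promoters in the table. A pair of Aldoa entries overlap and hold the same match, and counted by gene 6 of the 9 held ACGTG in some entry. GCGTG was present in 4 of the 13 (30.8%) against 28.2%, and either of the motifs in 10 (76.9%) against 38.6%. The palindrome CACGTG holds ACGTG on both strands and counts for both. The promoters of Ldha at chr7:46845554-46845803 (plus strand), Tpi1 at chr6:124814159-124814408 (minus strand) and Pfkp at chr13:6648772-6649021 (minus strand) are shown because the levels of Ldha and Tpi1 varied across the tumours with those of the other genes and the level of Pfkp did not, as described below. The motifs are in capitals. Ldha had 5 matches to ACGTG in the entry shown, which is the one of its 2 entries with the most, while the other had no ACGTG and 1 GCGTG. Tpi1 had neither motif in this window and Pfkp had 3 matches to GCGTG. These letter matches are a description of the windows and not a record of bound sites.
Ldha: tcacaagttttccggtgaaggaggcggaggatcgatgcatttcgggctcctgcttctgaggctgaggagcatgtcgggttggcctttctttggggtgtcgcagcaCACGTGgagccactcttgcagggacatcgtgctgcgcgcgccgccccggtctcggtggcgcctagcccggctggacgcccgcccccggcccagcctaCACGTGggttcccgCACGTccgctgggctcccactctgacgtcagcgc
Tpi1: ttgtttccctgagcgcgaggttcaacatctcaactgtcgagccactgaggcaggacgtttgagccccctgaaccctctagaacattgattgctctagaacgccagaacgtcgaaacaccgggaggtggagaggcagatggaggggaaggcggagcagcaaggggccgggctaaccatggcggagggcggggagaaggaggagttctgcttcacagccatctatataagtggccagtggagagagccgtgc
Pfkp: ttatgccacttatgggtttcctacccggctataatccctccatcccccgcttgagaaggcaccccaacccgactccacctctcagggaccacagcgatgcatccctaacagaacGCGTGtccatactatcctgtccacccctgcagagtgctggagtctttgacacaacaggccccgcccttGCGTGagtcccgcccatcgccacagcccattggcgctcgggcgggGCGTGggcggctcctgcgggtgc

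No difference between SEVO and CTRL tumours passed the test for any of the 9 genes. In edgeR, 0 of the 9 had an adjusted p under 0.05, like 0.0% of the 7561 genes tested, and 0 of the 9 had an unadjusted p under 0.05, where 4.36% of all tested genes did. DESeq2 also gave 0 of 9 at an unadjusted p under 0.05, against 0.625% of its 42422 genes, most of them too low in reads for the edgeR test. The CPM values of the groups overlapped for all 9 genes, while they did not overlap for 8.56% of all genes tested (4.17% with SEVO higher and 4.39% with SEVO lower). The summed level of the 9 genes was 977, 1139 and 954 CPM in CTRL tumours 1, 2 and 3 and 726, 769 and 1300 CPM in SEVO tumours 1, 2 and 3. On this scale SEVO tumour 3 was above every CTRL tumour and the other SEVO tumours were below them. As a share of counted reads, without the TMM scaling, SEVO tumours 1 and 2 were instead above CTRL tumour 1, at 0.0730% (95% Wilson interval 0.0675 to 0.0789) and 0.0802% (0.0745 to 0.0863) against 0.0597% (0.0557 to 0.0640). The genes Gm10800 and Gm10801 took 49.0%, 1.31% and 35.5% of the counted reads in CTRL tumours 1, 2 and 3 and 7.97%, 8.71% and 18.7% in SEVO tumours. Of the 9 genes, 7 passed the filter on low counts and Slc2a1 and Pgk1 did not, and these latter were taken from a fit without the filter, in which 2.41% of genes had an unadjusted p under 0.05. The log2 difference, SEVO minus CTRL, was below 0 for 6 of the 7 genes past the filter, beside 51.1% of all genes tested. It was below 0 for 3 of these 7 when libraries were scaled by their total alone, without the filter or in DESeq2, and for all 7 when they were scaled by uniquely aligned reads. Slc2a1 and Pgk1 were above 0 in the fit without the filter, where the median of all genes was -0.38. The median of all tested genes in the filtered fit was -0.02. It moved to 0.22 with the total alone, -0.38 without the filter, -0.55 in DESeq2 and -0.18 with uniquely aligned reads. Relative to that median, 4 of the 7 genes past the filter were lower in the filtered fit, 4 with the total alone, 4 with uniquely aligned reads and 0 without the filter or in DESeq2. This count was 7 with at least 10 reads required in every tumour, 6 with the replicate number as a block, and 2 to 6 with 1 tumour left out (2 without SEVO tumour 1 and 6 without SEVO tumour 3).

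**Figure D1:**
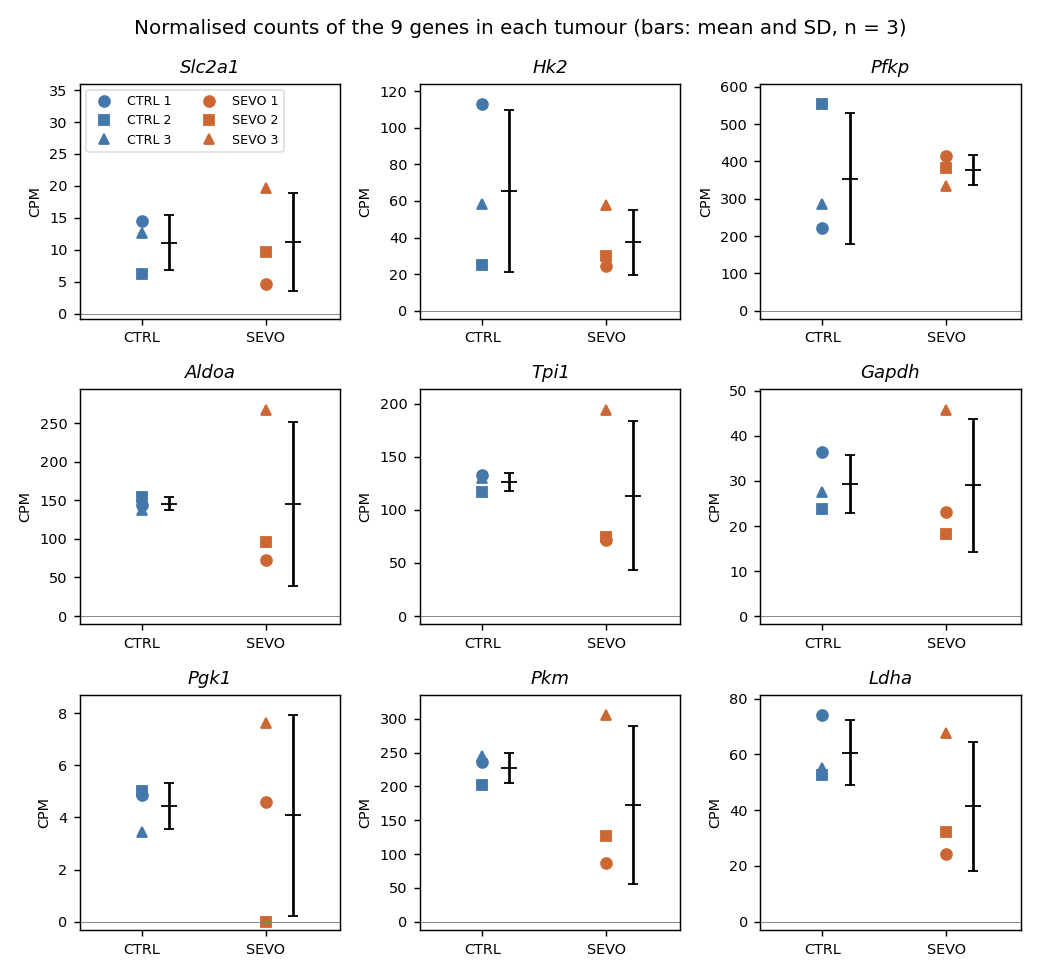
Normalised counts in CPM (vertical axes, which differ between panels) of the 9 genes in the 3 CTRL and 3 SEVO tumours, one symbol per tumour, with the mean and SD as black bars. SEVO tumour 3 is the highest of the 6 tumours for 6 genes, and the groups overlap in every panel.

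Per kilobase of exon, Aldoa, Tpi1 and Pkm had the highest levels of the 9 genes. In CPM per kilobase of merged exon (RPKM), the median over the 6 tumours was 48.5 for Aldoa (24.9 to 91.8), 44.7 for Tpi1 (25.9 to 70.5) and 43.7 for Pkm (17.2 to 61.1). The median level of Pfkp was 26.8 RPKM (16.6 to 41.3) and that of Ldha was 16.3 RPKM (7.30 to 22.4). The lower levels were 7.36 RPKM for Hk2 (4.05 to 18.9), 6.22 for Gapdh (4.41 to 11.1), 3.18 for Slc2a1 (1.31 to 5.60) and 2.11 for Pgk1 (0 to 3.40). The ranges of every pair of neighbours in this order overlapped, but within each of the 6 tumours Ldha was above Hk2 and Gapdh above Slc2a1. For reference, the 1107 olfactory receptor genes, which are known mainly from the nose, held 0.105 (CTRL tumour 2) to 1.57 (CTRL tumour 1) reads per kilobase. Aldoa stood at 26.1 to 404 times this density, Gapdh at 4.63 to 44.0 times and Slc2a1 at 2.19 to 13.6 times, while Pgk1 ranged from 0 to 17.1 times. For Aldoa, Gapdh and Slc2a1 the lowest multiple was in CTRL tumour 1 and the highest in CTRL tumour 2. Aldoa itself had 40.9 and 42.3 reads per kilobase in these tumours, so the ends of its range come from the olfactory density. Only uniquely aligned reads were counted, and reads that a gene shares with near-identical copies elsewhere are not in its count. Gapdh in particular has many processed pseudogenes in the mouse genome, so its place in this order is uncertain, and how many reads were lost in this way was not tested. With the strand setting of the counting unknown as well, the order of all 9 genes holds for these counts only.

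Slc2a1 (ENSMUSG00000028645.11, chr4:119108711-119137983, plus strand) encodes the transporter GLUT1, through which many cells take up glucose. It had 12, 5 and 11 reads in CTRL tumours 1, 2 and 3 and 4, 9 and 18 reads in SEVO tumours 1, 2 and 3. The lowest and the highest tumour were thus both SEVO tumours. The CTRL mean was 11.2 ± 4.34 CPM and the SEVO mean 11.3 ± 7.65 CPM (SD, n = 3 each), and the exact permutation test gave p = 0.9. In the edgeR fit without the filter, its log2 difference was 0.53 (standard error 0.67, adjusted p = 0.814), where the median of all genes was -0.38.

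Gm12868, annotated as antisense to Slc2a1 (chr4:119133749-119138801, minus strand), had 202, 214 and 200 reads in CTRL and 331, 358 and 388 in SEVO tumours. The SEVO tumours were higher than each CTRL tumour, in reads and in CPM. The mean of the CTRL tumours was 248 ± 19.6 CPM and that of the SEVO tumours 396 ± 23.6 CPM (SD, n = 3 each), an edgeR log2 difference of 0.68 (standard error 0.34, unadjusted p = 0.0652, adjusted p = 0.741). The exact permutation test gave p = 0.1, the smallest that 3 tumours against 3 can give. The 105 bases shared with Slc2a1 are part of the 417 exon bases of Gm12868. For each Slc2a1 read there were 16.2, 39.0 and 17.4 reads of Gm12868 in CTRL and 73.7, 37.7 and 21 in SEVO tumours. These ratios overlapped between the groups, with a mean log2 ratio of 4.48 ± 0.70 in CTRL and 5.28 ± 0.91 in SEVO tumours (exact permutation p = 0.3, adjusted p = 0.75 over 5 pairs).

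Hk2 (ENSMUSG00000000628.10, chr6:82725025-82774454, minus strand) encodes a hexokinase, which traps glucose in the cell by phosphorylating it. It stood at 113, 25.1 and 58.5 CPM in CTRL and 24.2, 30.04 and 57.8 CPM in SEVO tumours, from 20 to 93 reads. CTRL tumour 1 was far above the others, and the remaining tumours of both groups covered the same range. The level averaged 65.5 ± 44.3 CPM in CTRL against 37.3 ± 18.0 CPM in SEVO (SD, n = 3 each). Its edgeR log2 difference of -0.81 (standard error 0.50, unadjusted p = 0.132, adjusted p = 0.741) was the largest in size among the 7 genes past the filter, and it was -0.17 without CTRL tumour 1. The exact permutation test gave p = 0.4.

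Pfkp (ENSMUSG00000021196.14, chr13:6579768-6648777, minus strand) encodes the platelet form of phosphofructokinase, the enzyme of the first step that commits sugar to glycolysis. It had 222, 553 and 285 CPM in CTRL tumours and 415, 383 and 335 CPM in SEVO tumours. CTRL tumours 1 and 3 were the lowest of the 6 and CTRL tumour 2 the highest, with the SEVO tumours between them. The mean of the CTRL tumours was 353 ± 176 CPM and that of the SEVO tumours 378 ± 40.4 CPM (SD, n = 3 each), with an edgeR log2 difference of 0.10 (standard error 0.41, adjusted p = 0.927). Without CTRL tumour 2 the log2 difference was 0.72 and each SEVO tumour was above both remaining CTRL tumours, in a setting in which 46.6% of all genes did not overlap.

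Pitrm1, which encodes a protease that degrades presequence peptides in mitochondria, meets Pfkp end to end on the opposite strand (chr13:6548149-6580515, plus strand). The 748 shared bases are non-coding in both genes. Pitrm1 had 21, 18 and 68 reads in CTRL and 31, 41 and 35 in SEVO tumours, so that CTRL tumours were both lowest and highest. Its level averaged 42.0 ± 31.2 CPM in CTRL against 39.3 ± 4.27 CPM in SEVO (SD, n = 3 each), with an edgeR log2 difference of -0.10 (standard error 0.46, adjusted p = 0.932). It was the only one of the 5 partners with fewer reads than its glycolysis gene in every tumour, at 0.0419 to 0.276 reads for each Pfkp read.

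Aldoa (ENSMUSG00000030695.16, chr7:126795234-126800751, minus strand) encodes aldolase A, which splits fructose bisphosphate into triose phosphates. It had 144, 154 and 138 CPM in CTRL and 72.4, 95.5 and 267 CPM in SEVO tumours. The CTRL tumours lay close together, SEVO tumours 1 and 2 lay below them and SEVO tumour 3 above. The means were the same to 3 digits, 145 ± 8.34 CPM for CTRL against 145 ± 106 CPM for SEVO (SD, n = 3 each), and the edgeR log2 difference was -0.0036 (standard error 0.45, adjusted p = 0.999). A second identifier with the symbol Aldoa (ENSMUSG00000114515.2) had 7, 0 and 4 reads in CTRL and 0, 1 and 3 reads in SEVO tumours and was not added to the first.

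Fam57b, a gene of the TLC domain family of membrane proteins, begins inside Aldoa and runs on beyond it (chr7:126797668-126830219, plus strand). It had 702, 1336 and 1075 reads in CTRL and 1664, 1756 and 1825 in SEVO tumours, so that the lowest SEVO tumour exceeded the highest CTRL tumour. The mean of the CTRL tumours was 1254 ± 412 CPM and that of the SEVO tumours 1929 ± 55.0 CPM (SD, n = 3 each), an edgeR log2 difference of 0.62 (standard error 0.43, unadjusted p = 0.174, adjusted p = 0.741). The exact permutation test gave p = 0.1. The 25 bases that it shares with Aldoa are part of its 3935 exon bases, and where on Fam57b its reads lie was not tested. For each Aldoa read there were 5.88, 10.8 and 8.93 reads of Fam57b in CTRL and 26.2, 19.6 and 7.44 in SEVO tumours, so that SEVO tumours 1 and 2 were highest and SEVO tumour 3 lay among the CTRL tumours. The difference of the mean log2 ratios was 0.92 (exact permutation p = 0.3, adjusted p = 0.75 over 5 pairs).

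Tpi1 (ENSMUSG00000023456.14, chr6:124810586-124814296, minus strand) encodes triosephosphate isomerase, which interconverts the triose phosphates. It had 132, 117 and 130 CPM in CTRL and 71.3, 74.0 and 194 CPM in SEVO tumours, the same arrangement as for Aldoa. The level averaged 126 ± 8.39 CPM in CTRL against 113 ± 70.1 CPM in SEVO (SD, n = 3 each), with an edgeR log2 difference of -0.16 (standard error 0.41, adjusted p = 0.885). Spsb2, a SOCS box gene whose product acts as an adaptor of ubiquitin ligases (chr6:124808661-124810619, plus strand), shares 34 non-coding bases with the end of Tpi1. It had 71, 94 and 144 reads in CTRL and 76, 147 and 70 in SEVO tumours, and these ranges overlapped. The edgeR log2 difference of Spsb2 was -0.20 (standard error 0.38, adjusted p = 0.848). Spsb2 reads for each Tpi1 read ranged from 0.653 to 1.27 in CTRL and from 0.395 to 2.12 in SEVO tumours (exact permutation p = 0.9, adjusted p = 0.9 over 5 pairs).

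Gapdh (ENSMUSG00000057666.18, chr6:125161715-125166467, minus strand) encodes the dehydrogenase that oxidises glyceraldehyde phosphate, and is often used as a reference gene. It had 36.4, 23.8 and 27.5 CPM in CTRL and 23.0, 18.2 and 45.8 CPM in SEVO tumours, from 17 to 42 reads. SEVO tumour 3 was again the highest, and SEVO tumours 1 and 2 were the lowest. The mean of the CTRL tumours was 29.3 ± 6.47 CPM and that of the SEVO tumours 29.0 ± 14.7 CPM (SD, n = 3 each), with an edgeR log2 difference of -0.01 (standard error 0.45, adjusted p = 0.993). Iffo1, an intermediate filament family gene (chr6:125145241-125161782, plus strand), shares 68 non-coding bases with the end of Gapdh. It had 58, 225 and 380 reads in CTRL and 125, 548 and 320 in SEVO tumours, more than Gapdh in each tumour, and the groups overlapped. Its edgeR log2 difference was 0.45 (standard error 0.60, adjusted p = 0.797), and the ratio of Iffo1 to Gapdh reads ranged from 1.92 to 15.5 in CTRL and from 6.12 to 31.3 in SEVO tumours (exact permutation p = 0.6, adjusted p = 0.9 over 5 pairs).

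Pgk1 (ENSMUSG00000062070.12, chrX:106187100-106203699, plus strand) encodes phosphoglycerate kinase, which makes ATP in the step after Gapdh. It had 4, 4 and 3 reads in CTRL and 4, 0 and 7 reads in SEVO tumours. At 0 of 894361 counted reads, SEVO tumour 2 allows up to 3 reads by counting error alone. Its CTRL mean was 4.44 ± 0.867 CPM against a SEVO mean of 4.08 ± 3.84 CPM (SD, n = 3 each), and the edgeR fit without the filter gave a log2 difference of 0.32 (standard error 1.00, adjusted p = 0.955). No gene was annotated opposite Pgk1.

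Pkm (ENSMUSG00000032294.17, chr9:59656368-59679375, plus strand) encodes pyruvate kinase M, which makes pyruvate and ATP. It had 236, 202 and 244 CPM in CTRL and 86.2, 127 and 305 CPM in SEVO tumours. SEVO tumours 1 and 2 were below every CTRL tumour and SEVO tumour 3 was above every CTRL tumour. The level averaged 227 ± 22.4 CPM in CTRL against 173 ± 117 CPM in SEVO (SD, n = 3 each), with an edgeR log2 difference of -0.40 (standard error 0.44, unadjusted p = 0.384, adjusted p = 0.788). Nothing was annotated on the strand opposite Pkm, but Gm49759, on the same strand, shares 767 exon bases with it and had 10, 4 and 7 reads in CTRL and 0, 4 and 11 in SEVO tumours. Reads that HTSeq could not assign to a single gene are in its separate tally of ambiguous reads and in no gene's count.

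Ldha (ENSMUSG00000063229.15, chr7:46841475-46855627, plus strand) encodes the lactate dehydrogenase A subunit and had no opposite gene. It had 74.1, 52.7 and 55.1 CPM in CTRL and 24.2, 32.2 and 67.6 CPM in SEVO tumours, from 21 to 62 reads. SEVO tumours 1 and 2 lay below the CTRL tumours, and SEVO tumour 3 lay between CTRL tumours 1 and 3. The mean of the CTRL tumours was 60.6 ± 11.7 CPM and that of the SEVO tumours 41.3 ± 23.1 CPM (SD, n = 3 each), with an edgeR log2 difference of -0.55 (standard error 0.40, unadjusted p = 0.197, adjusted p = 0.741). The exact permutation test gave p = 0.3.

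Several of the 9 genes varied together across the tumours, and this variation did not follow the groups. Among the 9, SEVO tumour 3 was the highest tumour for 6 genes, where it was highest for 8.28% of all genes tested. These 6 include Slc2a1 and Pgk1, which were below the filter and so are not among all genes tested. SEVO tumour 1 was the lowest tumour for 6 genes, Slc2a1 among them, where it was lowest for 20.3% of all genes tested. SEVO tumour 2 was the lowest for another 2, Gapdh and Pgk1. Over the 6 tumours, the correlation of each gene's log2 CPM with the mean of the other 8 was 0.978 for Tpi1, 0.923 for Gapdh, 0.905 for Ldha, 0.901 for Pkm and 0.884 for Aldoa. It was 0.688 for Slc2a1, 0.622 for Hk2, 0.495 for Pgk1 and -0.532 for Pfkp, the one gene with the opposite sign. Most melanocyte markers had correlations of a similar size with the mean of the 9 genes, as given below. These values are descriptions over 6 points that share library, depth and tumour composition.

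**Figure D2:**
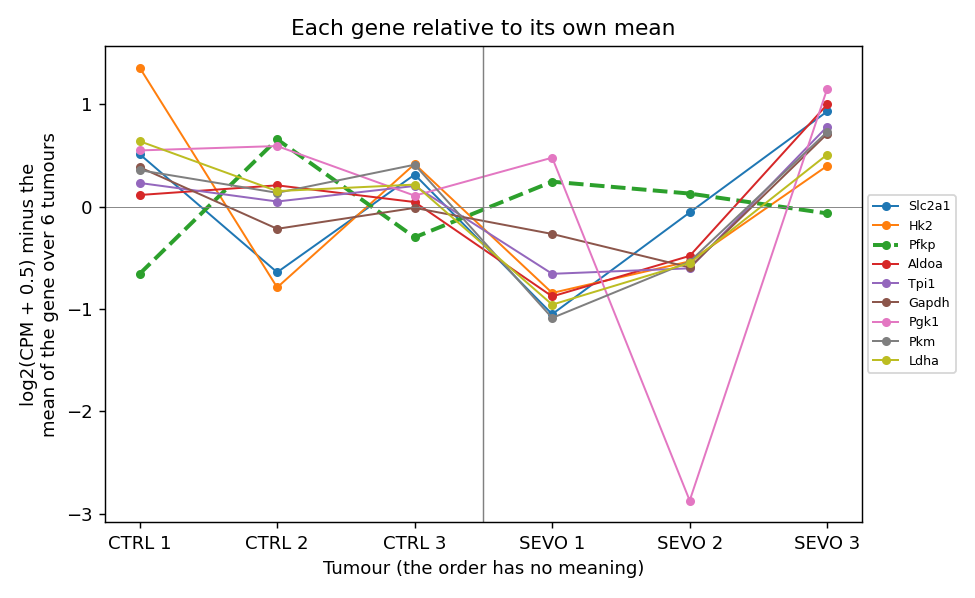
Level of each of the 9 genes in each tumour as log2(CPM + 0.5) minus the gene's mean over the 6 tumours (vertical axis), with Pfkp as a dashed line. Most lines dip in SEVO tumours 1 and 2 and peak in SEVO tumour 3, Pfkp does not, and Pgk1 has 0 reads in SEVO tumour 2.

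Melanocyte markers were set beside the glycolysis genes in each tumour. Mean log2 CPM of the 9 glycolysis genes was 6.06, 5.69 and 5.83 in CTRL and 5.12, 5.00 and 6.35 in SEVO tumours. Mean log2 CPM of the 7 melanocyte markers was 6.68, 6.61 and 6.70 in CTRL and 5.43, 5.60 and 7.06 in SEVO tumours, so that SEVO tumours 1 and 2 were lowest and SEVO tumour 3 highest in both. All 7 markers were tested, 7 of 7 had a log2 difference below 0 with a median of -0.38, 0 had an unadjusted p under 0.05 in edgeR, and all overlapped between the groups. The correlation with the mean of the 9 glycolysis genes over the 6 tumours was 0.957 for Tyrp1, 0.954 for Mlana and 0.933 for Tyr. It was 0.931 for Mitf, 0.908 for Pmel, 0.863 for Dct and 0.524 for Sox10. The part of the melanocyte markers in the glycolysis values was not tested. The summed level of the 10 monocyte and macrophage markers was 228 to 281 CPM in CTRL tumours and 237 to 324 CPM in SEVO tumours, with Csf1r the most abundant of them in every tumour. Of the other markers, the 5 erythroid genes summed to 149 to 262 CPM in CTRL tumours and 193 to 220 CPM in SEVO tumours, and the 5 endothelial genes to 11.3 to 110 CPM and 17.2 to 50.2 CPM. Alas2 had the most reads of the erythroid genes, 689 over all tumours, and it shares exon bases with Apex2 on the opposite strand, which had 6103. The 6 T and NK cell genes summed to 7.53 to 80.1 CPM in CTRL tumours and 27.6 to 30.5 CPM in SEVO tumours, the 5 fibroblast genes to 31.4 to 130 CPM and 13.8 to 52.3 CPM, and the 5 skeletal muscle genes to 1.25 to 44.9 CPM and 1.15 to 18.5 CPM. Past the filter were 7 melanocyte, 2 monocyte and macrophage, 2 erythroid, 1 endothelial, 1 T and NK cell, 1 fibroblast and 0 skeletal muscle genes. No gene of these 7 marker lists had an unadjusted p under 0.05 in edgeR, beside 4.36% of all genes tested. With so few genes tested in most lists, this does not show whether those cell types differed between the groups.

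SEVO tumour 3 was already known as the highest tumour for 6 of the 9 genes, so leaving it out lowers the SEVO values of those genes. Over all genes the share without overlap between the groups also rose then, from 8.56% to 31.9%. Without SEVO tumour 3, Aldoa, Tpi1, Pkm and Ldha, 4 of the 9 genes, were lower in both remaining SEVO tumours than in every CTRL tumour. Hk2, Pkm and Ldha then had an unadjusted p under 0.05, as had 13.3% of all genes, with edgeR log2 differences of -1.22 (unadjusted p = 0.0453, adjusted p = 0.374), -1.05 (unadjusted p = 0.0241, adjusted p = 0.354) and -1.05 (unadjusted p = 0.0195, adjusted p = 0.345). Without CTRL tumour 2, Hk2 had a log2 difference of -1.05 and an unadjusted p of 0.0177 in edgeR (adjusted p = 0.120), where 28.5% of all genes had an unadjusted p under 0.05. In neither setting did any of the 9 have an adjusted p under 0.05.

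**Figure D3:**
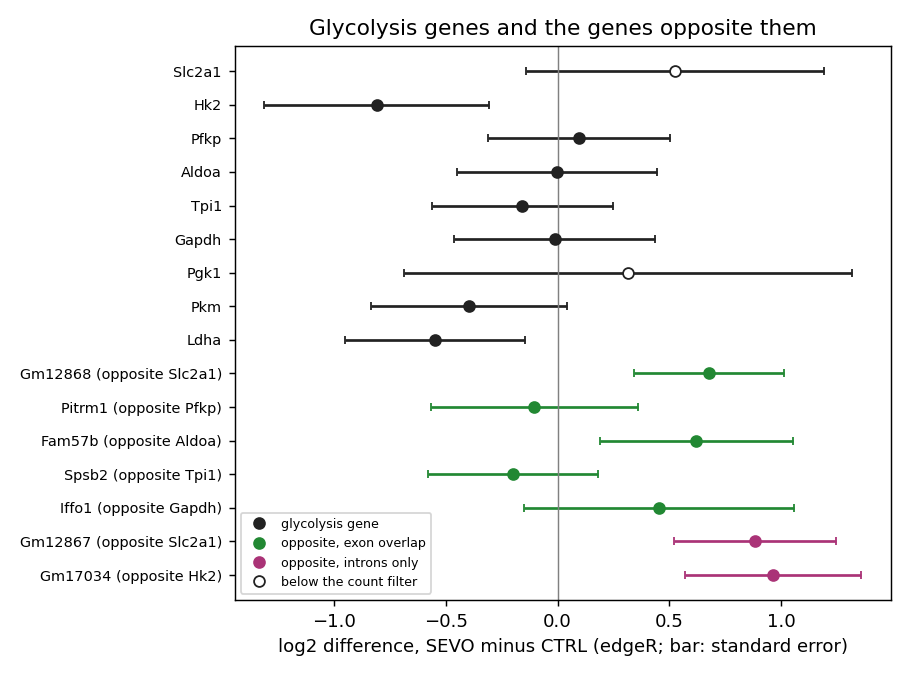
edgeR log2 differences, SEVO minus CTRL (horizontal axis, bars are standard errors), of the 9 glycolysis genes and the genes opposite them, with open points for the 2 genes below the count filter. Aldoa is at -0.0036 and Fam57b at 0.62, both from the same fit, while the open points come from the fit without the filter and cannot be set beside the filled ones.

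In the 5 pairs that share exon bases, no partner passed the test. Of the 5 partners, 3 had a log2 difference above 0, against 48.9% of all genes tested, and 0 had an unadjusted p under 0.05 in edgeR. DESeq2 gave 1 of the 5 at an unadjusted p under 0.05, namely Gm12868 with a log2 difference of 0.97 (unadjusted p = 0.0188, adjusted p = 0.989). Of the 42422 genes tested in DESeq2, 0.625% were under 0.05. Most of those genes were below the filter that all 5 partners passed, so that share is not a like background for them. In edgeR without CTRL tumour 2, Gm12868 had an unadjusted p = 0.0263 (adjusted p = 0.135) and Fam57b an unadjusted p = 0.0224 (adjusted p = 0.127), where 28.5% of all genes were under 0.05. For Gm12868 and Fam57b, 2 of the 5, every SEVO tumour exceeded every CTRL tumour, as for 4.17% of all genes tested. The log2 ratio of partner to glycolysis gene was higher in SEVO tumours for 4 of the 5 pairs and its values overlapped between the groups for all 5. The lowest adjusted p over the 5 pairs was 0.75 in the exact permutation test. A difference in the ratio does not say which of the partners differed.

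A pair of antisense genes, the only ones annotated wholly opposite introns of the 9 genes, was described after its values had been seen. Gm17034, opposite introns of Hk2, had 216, 236 and 374 reads in CTRL and 402, 732 and 622 in SEVO tumours, so that the lowest SEVO tumour exceeded the highest CTRL tumour. Its level averaged 329 ± 88.3 CPM in CTRL against 642 ± 165 CPM in SEVO (SD, n = 3 each), an edgeR log2 difference of 0.96 (standard error 0.39, unadjusted p = 0.0292, adjusted p = 0.741), and the exact permutation test gave p = 0.1. Gm17034 is among the genes that the study itself selected as differing in these same samples, so its difference is not independent evidence. Gm12867, opposite introns of Slc2a1, had 37, 25 and 56 reads in CTRL and 53, 89 and 95 in SEVO tumours, with an overlap of the groups. Its edgeR log2 difference was 0.88 (standard error 0.36, unadjusted p = 0.0304, adjusted p = 0.741). For each Hk2 read there were 2.32, 11.5 and 7.27 reads of Gm17034 in CTRL and 18.7, 25.7 and 11.6 in SEVO tumours, a difference of 1.62 in the mean log2 ratio. For each Slc2a1 read there were 3.0, 4.64 and 4.91 reads of Gm12867 in CTRL and 11.9, 9.42 and 5.16 in SEVO tumours, a difference of 1.03. Both genes were higher in SEVO tumours at an unadjusted p under 0.05, as were 0.529% of all genes tested. Over the 15 other settings run, the unadjusted p in edgeR or DESeq2 was under 0.05 in 8 for Gm17034 (0.00466 to 0.162 over all, with adjusted p of 0.122 or more) and in 10 for Gm12867 (0.0126 to 0.106, with adjusted p of 0.185 or more). The highest for Gm17034 was without SEVO tumour 2, and it was also over 0.05 without CTRL tumour 1 (0.0672) and without SEVO tumours 1 (0.0531) or 3 (0.0621). For Gm12867 it was over 0.05 without CTRL tumour 2 (0.0565) and without SEVO tumours 2 (0.0780) or 3 (0.0726). Both ratios were higher in all SEVO tumours than in all CTRL tumours, with p = 0.1 in the exact permutation test, the smallest possible.

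**Figure D4:**
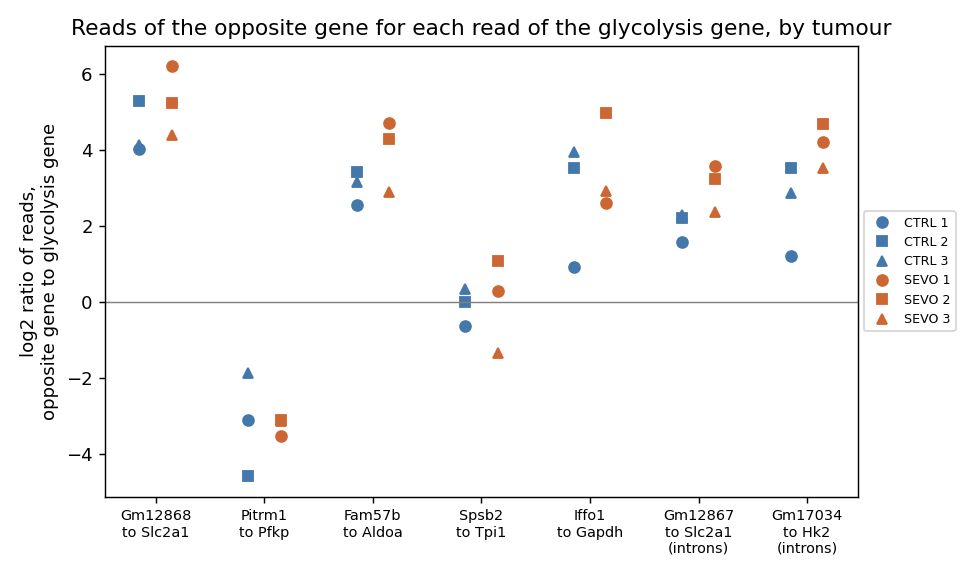
Reads of the opposite-strand gene for each read of the glycolysis gene, as log2 ratios with 0.5 reads added to both (vertical axis), per tumour for 5 pairs with shared exon bases and 2 pairs in introns only. Points above 0 have more reads on the opposite gene; Pitrm1 to Pfkp lies below 0 in every tumour, and the groups separate only in the 2 intron pairs.

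The wider pathway held 78 further genes in 5 lists, 24 of which passed the filter. Of these 24, 13 had a log2 difference above 0 and 11 below 0, with a median of 0.12 beside -0.02 for all genes, and 0 had an unadjusted p under 0.05 in edgeR. Among the other glycolysis enzymes 9 of 20 were tested, 4 above 0 and 5 below 0, with a median of -0.32. Other hexose transporters had 4 of 12 tested, 3 above and 1 below (median 0.17), and genes of lactate and pyruvate handling had 6 of 19 tested, 4 above and 2 below (median 0.21). Regulators of glycolysis had 3 of 14 tested, 2 above and 1 below (median 0.16), and gluconeogenesis and the pentose phosphate pathway had 2 of 13 tested, both below (median -0.18). The lowest unadjusted p belonged to Pdk1, the kinase that inhibits pyruvate dehydrogenase, with 25.0 ± 16.0 CPM in CTRL against 9.83 ± 7.81 CPM in SEVO tumours, a log2 difference of -1.33 (standard error 0.72, unadjusted p = 0.0853, adjusted p = 0.741 in edgeR). Pdha1, a subunit of pyruvate dehydrogenase itself, averaged 74.1 ± 29.0 CPM in CTRL against 119 ± 30.6 CPM in SEVO tumours, a log2 difference of 0.69 (standard error 0.37, unadjusted p = 0.0874, adjusted p = 0.741 in edgeR). Slc2a6, a hexose transporter, had a log2 difference of -0.72 (standard error 0.44) and Pfkfb2, which sets the level of an activator of phosphofructokinase, one of 0.48 (standard error 0.33). The edgeR adjusted p was 0.741 for both of these as well. By CPM the highest of these lists were Slc5a2, Pdha1, Pfkfb2 and Gapdhs. Slc5a2, a sodium-coupled glucose transporter known from kidney, averaged 98.0 ± 19.8 CPM in CTRL against 136 ± 24.6 CPM in SEVO tumours (log2 difference 0.47, standard error 0.33, adjusted p = 0.741 in edgeR), with all SEVO tumours above all CTRL tumours. Gapdhs, the sperm form of Gapdh, averaged 66.2 ± 15.3 CPM in CTRL against 78.1 ± 19.5 CPM in SEVO tumours (log2 difference 0.24, standard error 0.34, adjusted p = 0.809 in edgeR). Slc5a2 and a second gene, Slc16a3, were the 2 of 24 whose groups did not overlap, beside 8.56% of all genes. Of the 78 genes, 23 shared exon bases with an opposite gene, and in 12 of the 23 the opposite gene had more reads over the 6 tumours, as for Gpi1 with 270 reads against 25228 and Pdha1 with 509 against 3959.

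The genes with the pattern most like the mean of the 9 glycolysis genes were Pdia4 (r = 0.9923 over the 6 tumours), Stt3b (0.9921), Serpinh1 (0.9866), Naca (0.9863) and Hist4h4 (0.9851). That mean weighs each gene alike, including Slc2a1 and Pgk1 below the filter, and Pgk1 had 0 reads in SEVO tumour 2. Whether the same genes rank highest without Slc2a1 and Pgk1 was not tested. Pdia4, Stt3b and Serpinh1 encode proteins that fold or glycosylate other proteins in the endoplasmic reticulum, Naca a subunit of a complex at the ribosome and Hist4h4 a histone. They were 5 of 216 genes with r of at least 0.9, where 7561 genes were tested in all, and they had a median of 15.5 to 35 reads per tumour.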

How the data were processed

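RNA from 6 tumours was sequenced by the study on an Illumina platform, with all libraries prepared and sequenced together. For the deposited files the authors counted reads on genes with HTSeq and GENCODE release M17, after quality control, removal of ribosomal RNA, trimming and alignment with STAR, keeping unique reads. The values are whole counts without normalization. The submitters' processing notes name Trimmomatic 0.36, STAR 2.6.0c, SAMtools 1.8.3, HTSeq 0.9.1 and the build GRCm38.p6. HTSeq's tallies of uncounted reads (27930688 to 41026677 reads on no feature per tumour) stayed out of library sizes and tests. Counted reads were 723431 to 1348676 per tumour, and intervals and limits from them cover counting error only.

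Of 53801 identifiers, 53706 were matched without their version to GENCODE M21 for symbols, positions and overlaps. SEVO was compared with CTRL in edgeR 4.0.16 (R 4.3.3) by the quasi-likelihood test with TMM and filterByExpr, two-sided, with Benjamini-Hochberg adjustment over all 7561 genes tested. Slc2a1 and Pgk1, below the filter, were read from the same fit to the 42423 genes with at least 1 read, and their CPM use the scaling of the filtered fit. DESeq2 1.42.0 was an alternative. The fits were tested on simulated counts with less spread between tumours than the common dispersion of 0.158 found here. The power at the spread found here was not tested. Exact permutation tests used all 20 splits of the tumours and were two-sided, with scipy 1.17.1. Strand ratios had 0.5 reads added. An opposite-strand gene has at least 1 exon base on an exon base of the gene. From 5 pathway lists, the 4 tested genes of lowest p and the 4 of highest mean CPM are named, and for the pattern the 5 genes with the highest r. The genes, lists and tests were chosen with earlier results of these data known. Alternatives changed the normalization, filter, test, dispersion, pseudocount or block, or left out each tumour. Results for the intron pairs under these settings, and the count of the 9 genes at an unadjusted p, were added after seeing the data. One shared stretch of sequence is not reported here.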

Additional observations from a re-analysis of the deposited data

How the results depend on the processing

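The log2 differences of Hk2, Pkm, Ldha, Gm12868 and Fam57b kept their sign under all settings run, but not their size. Leaving out 1 tumour gave -1.22 to -0.17 for Hk2, -1.05 (without SEVO tumour 3) to -0.020 (without SEVO tumour 1) for Pkm, -1.05 to -0.21 for Ldha, 0.67 to 0.88 for Gm12868 and 0.41 to 1.02 for Fam57b. Without the filter Hk2 was at -0.18, Pkm at -0.0039 and Ldha at -0.094, and in DESeq2 at -0.37, -0.14 and -0.25. The median of all genes was -0.38 without the filter and -0.55 in DESeq2. Hk2, Pkm and Ldha thus lay above the median of all genes in both settings, and their sign is relative to 0 only. For the values that changed sign below, the cause was not tested. Scaled by uniquely aligned reads, Slc2a1 was at -0.10, Pfkp at -0.037 and Pgk1 at -0.23, and with at least 10 reads in every tumour Pfkp was at -0.040, while Slc2a1 and Pgk1 had too few reads for that setting. The differences of Aldoa, Tpi1, Gapdh, Pitrm1 and Spsb2 were 0.25, 0.12, 0.29, 0.16 and 0.018 with the library total alone, 0.35, 0.24, 0.47, 0.37 and 0.25 without the filter, and 0.22, 0.10, 0.31, 0.23 and 0.11 in DESeq2.

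Leaving out each tumour in turn gave log2 differences of 0.027 (without SEVO tumour 3) to 0.84 (without SEVO tumour 1) for Slc2a1, -0.15 to 0.72 for Pfkp, -0.74 to 0.36 for Aldoa, -0.75 to 0.14 for Tpi1, -0.45 to 0.32 for Gapdh, -0.37 to 0.87 for Pgk1, -0.36 to 0.76 for Pitrm1, -0.51 to 0.12 for Spsb2 and -0.056 to 1.05 for Iffo1. The differences in log2 ratio ranged from -0.77 to 0.59 for Pitrm1 to Pfkp, from -0.44 to 0.77 for Spsb2 to Tpi1 from -0.24 to 1.26 for Iffo1 to Gapdh, from 0.34 to 1.25 for Gm12868 to Slc2a1, from 0.54 to 1.45 for Fam57b to Aldoa, from 0.96 to 2.11 for Gm17034 to Hk2 and from 0.77 to 1.37 for Gm12867 to Slc2a1.

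The 330 genes with an unadjusted p under 0.05 in edgeR became 205 with the library total alone and 1021 without the filter, where more genes were tested. They numbered 95 to 2550 with 1 tumour left out (95, 2550 and 170 without CTRL tumours 1, 2 and 3, and 99, 104 and 1117 without SEVO tumours 1, 2 and 3). The 0 genes with an adjusted p under 0.05 became 0 to 31, with 31 without CTRL tumour 2. Leaving out 1 tumour gave 0 to 3 of the 9 glycolysis genes at an unadjusted p under 0.05 in edgeR. It left 0 to 4 of the 9 without overlap between the groups. Of the pathway genes, 0 to 5 had an unadjusted p under 0.05, 5 without CTRL tumour 2 and 4 without SEVO tumour 3. Over all genes tested, 28.5% were under 0.05 without CTRL tumour 2 and 13.3% without SEVO tumour 3. The groups did not overlap for 46.6% and 31.9% of all genes in these settings. With at least 10 reads in every tumour, 1 pathway gene had an unadjusted p under 0.05, as had 235 genes in all.

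Same-numbered tumours deviated from their group means with correlations of -0.381, 0.324 and 0.119, so the numbers were not taken to pair the samples. With the replicate number as a block, 1 gene had an adjusted p under 0.05 in edgeR, and Pitrm1 had a log2 difference of 0.099. In that setting 1 pathway gene had an unadjusted p under 0.05, as had 391 genes in all. The size of difference detectable for genes with few reads was not tested.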
